A study of Danio rerio with 19 samples.

Results

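Gene expression in single zebrafish larval heads was compared between homozygous (HOM) and heterozygous (HET) carriers of a deletion in scn1lab, using the 3 HOM and 3 HET libraries among the 19 bulk RNA-seq libraries of the series. The libraries were chosen by genotype label alone. All HOM and HET larvae compared here carried the allele scn1labΔ44, on both chromosomes in HOM and on 1 in HET. Libraries of 3 wild-type (WT) larvae of the same line are given beside them, since the 9 libraries were fitted together. Each library came from 1 head with the eyes removed, taken from sibling- or cousin-matched larvae of crosses between heterozygous fish. The labels give no age, and they call the tissue whole brain although heads were extracted. Another 4 HOM and 3 HET libraries of a dyrk1a line, bred from fish heterozygous for dyrk1aaΔ77 and dyrk1abΔ8, served to test whether a difference was larger in 1 line than in the other. No source says that the larvae of a genotype came from separate clutches, so p-values measure the spread between these heads.

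The gene scn1lab encodes a pore-forming alpha subunit of voltage-gated sodium channels, the channels that carry the rising phase of the nerve impulse. Its closest human relative is SCN1A, in which loss of 1 copy causes the childhood epilepsy Dravet syndrome, largely through inhibitory interneurons that fire too little. In zebrafish, larvae without functional scn1lab have seizures and were first known for darkened skin and abnormal eye movements, while heterozygous fish look largely normal. The comparison of HOM with HET therefore asks what the loss of the remaining copy changes in the head.

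Values per library are given in the order of replicates 1 to 3 throughout. Total counts were 18.7, 20.6 and 23.2 M in HOM1 to HOM3, and 29.9, 20.9 and 15.1 M in HET1 to HET3. Pan-neuronal genes were present in every library: ELAVL3, an RNA-binding protein of neurons, stood at 91.2, 123 and 87.3 CPM (counts scaled to the same library size) in HOM heads, at 48.4, 154 and 241 CPM in HET heads and at 212 to 296 CPM in WT heads. The heads differed in their share of other tissue. The digestive organ list took 13.6%, 0.0513% and 17.2% of counts in HOM1 to HOM3, against 3.05%, 14.6% and 1.34% in HET1 to HET3. Ribosomal protein genes took 20.2% of counts in HET3 and between 5.91% and 9.34% in the other 8 libraries. Lens genes took 0.112% of counts in HOM2 and at most 0.0091% elsewhere.

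Of 21466 genes tested, 1 gene passed the threshold, a Benjamini-Hochberg adjusted p under 0.05 in edgeR's quasi-likelihood test (0.00466% of genes). At an unadjusted p under 0.05, 511 genes were higher in HOM (2.38%) and 404 were lower (1.88%), together 915 (4.26%). In 1068 genes every HOM library lay above every HET library (4.98%), and in 626 genes every HOM library lay below (2.92%). These shares are the background for the counts of list members given below for HOM against HET. The median size of the log2 difference was 0.38 and its median standard error (SE) 0.49. Beside this, HOM against WT gave 1 gene past the threshold in edgeR (0.00466%), against 1524 in DESeq2, and 4057 genes at an unadjusted p under 0.05 (18.9%). HET against WT gave 0 past the threshold in edgeR (0%), against 298 in DESeq2, and 2833 at an unadjusted p under 0.05 (13.2%). DESeq2, run on the same libraries with 24575 genes given an adjusted p, called 35 genes higher (0.142%) and 26 lower (0.106%) in HOM than in HET. Every gene other than si:dkey-73p2.2 and pmela had an edgeR adjusted p of at least 0.855 in HOM against HET, so the differences that follow are given as values with their SE and are not calls.

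The gene that passed was si:dkey-73p2.2 (ENSDARG00000079245), which fell in HOM. It was not on the rule for named genes, which leaves out clone names, and was picked because it was the only call. It stood at 1.99, 2.24 and 1.15 CPM in HOM heads, at 111, 46.0 and 55.8 CPM in HET heads, and at 21.5, 19.3 and 16 CPM in WT heads. The 3 genotypes did not overlap, and WT lay between HOM and HET. The log2 change was -5.30 (SE 0.45, edgeR adjusted p = 0.012). The DESeq2 adjusted p was 3.4e-28. The call was lost without HOM1 (adjusted p = 0.23), HOM2 (0.12), HOM3 (0.0551), WT1 (0.0508) or WT2 (0.0507), without the 3 libraries of high digestive share (0.874) and with only the 6 HOM and HET libraries in the fit (0.212), while the log2 change stayed between -5.54 and -4.82 over the HOM and HET libraries left out in turn.

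The neighbouring numbers of the same clone name were then read, a choice made after their values were seen. The genes si:dkey-73p2.1 to si:dkey-73p2.5 are named for 1 genomic clone, and the gene tables used here give no function for them. In si:dkey-73p2.1 the pattern was the reverse of si:dkey-73p2.2: it held 83, 103 and 70 counts in HOM heads, 0 counts in every HET library, and 40, 56 and 0 counts in WT heads. It was at least 26.4-fold higher in HOM than in HET, against a floor of 3 counts per library. The gene si:dkey-73p2.5 held 0 counts in every HOM library and 26, 19 and 51 counts in HET heads, so it was at least 12.5-fold lower in HOM. The gene si:dkey-73p2.4 stood at 5.66, 1.60 and 2.82 CPM in HOM heads and at 17.9, 15.9 and 51.2 CPM in HET heads (log2 difference -3.08, SE 0.72). The remaining gene, si:dkey-73p2.3, overlapped between HOM (8.03, 8.52 and 5.06 CPM) and HET (8.57, 5.09 and 6.61 CPM). In 4 of the 5 genes HOM and HET were therefore apart, in both directions. That count includes si:dkey-73p2.2, the call that led to the clone being read. Over all genes tested, HOM and HET did not overlap with HOM higher in 4.98% and with HOM lower in 2.92%. Reads of near-identical neighbours can be split between copies by the counting, and whether that bears on these genes was not tested. Another clone-named gene, si:dkey-239b22.1, stood at 67.0, 32.0 and 24.8 CPM in HOM heads, 9.30, 7.44 and 10.3 CPM in HET heads and 2.69, 1.93 and 1.15 CPM in WT heads, so that the genotypes stood in order (log2 difference 2.2, SE 0.44).

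**Figure D1:**
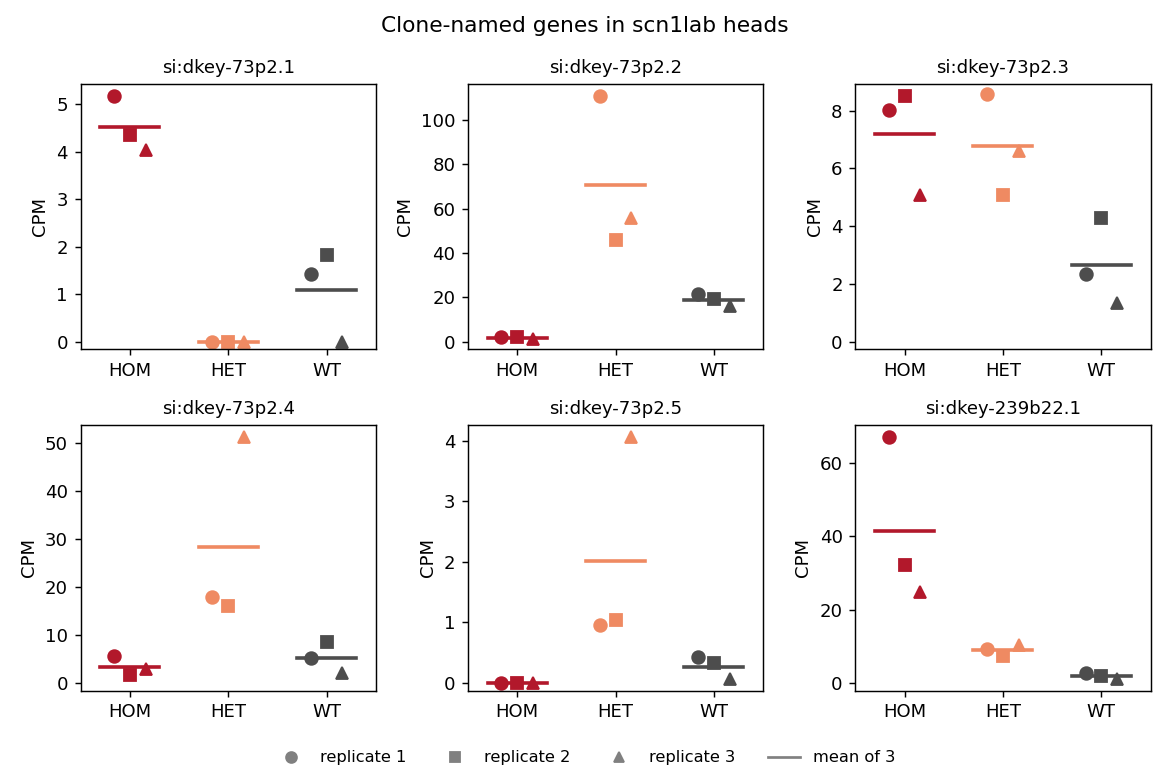
CPM of 6 clone-named genes (vertical axis, linear) in HOM, HET and WT heads of the scn1lab line. Points are libraries, with a marker per replicate number, and lines are means of 3; si:dkey-73p2.2 is near 0 in HOM and highest in HET, and si:dkey-73p2.1 is at 0 in all HET libraries.

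Melanosome genes were higher in HOM heads than in HET heads, and HET heads stood near WT. Melanophores, the black pigment cells of fish, build melanin from tyrosine with the enzymes encoded by tyr, tyrp1 and dct, on fibrils of the protein encoded by pmel, inside organelles called melanosomes. The gene pmela (ENSDARG00000091298) stood at 363, 292 and 273 CPM in HOM heads, at 63.7, 47.3 and 43.3 CPM in HET heads and at 42.5, 49.0 and 71.2 CPM in WT heads. Every HOM library was several times above every other library, with 309 ± 47.5 CPM in HOM heads and 51.5 ± 10.8 CPM in HET heads (SD, n = 3 each; log2 difference 2.59, SE 0.29). It came second of all genes by p, just short of the threshold (edgeR adjusted p = 0.0742), and passed with limma's voom and quality weights (adjusted p = 0.0273) and with DESeq2 (adjusted p = 3.4e-12). Its edgeR adjusted p lay between 0.0579 and 1 over the other alternatives, and every one of them gave a log2 difference of at least 2.45.

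The melanin enzymes were likewise highest in HOM heads, while the order of HET and WT differed between genes. The log2 HET minus WT was 0.28 for TYRP1 (ENSDARG00000056151) and -0.72 for DCT. TYRP1 (ENSDARG00000056151), which acts late in melanin synthesis, stood at 1214, 801 and 792 CPM in HOM heads, 261, 178 and 65.5 CPM in HET heads and 159.8, 121 and 134 CPM in WT heads (log2 difference 2.48, SE 0.47). The second copy of TYRP1 (ENSDARG00000029204) stood at 51.2, 53.5 and 45.8 CPM in HOM heads and at 16.3, 8.26 and 5.98 CPM in HET heads (2.30, SE 0.47). DCT, which converts the intermediate dopachrome, stood at 48.7, 35.5 and 36.8 CPM in HOM heads and at 4.87, 8.32 and 11.3 CPM in HET heads (2.31, SE 0.63). In each of these genes HOM and HET did not overlap. TYR, the enzyme of the first step, was low in both groups, with 11.4, 10.2 and 3.51 CPM in HOM heads and 2.23, 0.274 and 0 CPM in HET heads (3.26, SE 1.18). DESeq2 called pmela, both TYRP1 copies and TSPAN10 higher.

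Transporters of the melanosome were higher as well. OCA2, a melanosomal membrane transporter, stood at 11.6, 7.97 and 6.56 CPM in HOM heads and at 0.293, 1.37 and 0 CPM in HET heads (log2 difference 3.94, SE 1.35). SLC24A5, the exchanger altered in the golden mutant of zebrafish, stood at 6.04, 6.20 and 9.49 CPM in HOM heads and at 3.19, 0.602 and 1.75 CPM in HET heads (1.96, SE 0.61). SLC45A2, altered in the albino mutant, differed less, with 32.2, 27.0 and 24.6 CPM in HOM heads and 14.9, 12.5 and 23.6 CPM in HET heads (0.72, SE 0.30). The tetraspanin gene TSPAN10 stood at 16.3, 11.8 and 15.2 CPM in HOM heads and at 3.81, 3.94 and 2.71 CPM in HET heads (2.04, SE 0.36). GPR143, a melanosomal receptor, stood at 9.46, 8.35 and 8.63 CPM in HOM heads and at 6.70, 8.26 and 5.50 CPM in HET heads (0.37, SE 0.33). The exception was pmelb, with 0 counts in all HOM libraries and 0, 0.493 and 3.35 CPM in HET heads.

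Over these 11 genes, a grouping written after their values were seen, 9 were higher and 1 lower at an unadjusted p under 0.05, 0 passed the threshold, and the median log2 difference was 2.30, beside 0.01 over all genes tested. The median stayed between 2.03 and 2.63 without each HOM or HET library in turn. The wider list of pigment cell genes had 10 of 26 members higher and 3 lower at an unadjusted p under 0.05, with a median of 0.40. Together the genes of the wider list took 0.192%, 0.176% and 0.135% of counts in HOM heads and 0.0767%, 0.0612% and 0.0399% in HET.

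Genes of the other pigment cells were lower, higher or overlapping between HOM and HET. In iridophores, the reflective cells, pnp4a serves purine synthesis, and it stood at 2.12, 2.36 and 6.90 CPM in HOM heads and at 10, 12.5 and 13.4 CPM in HET heads (log2 difference -1.66, SE 0.50). TFEC, a transcription factor of iridophores, stood at 0, 0 and 0.288 CPM in HOM heads and at 2.34, 0.657 and 1.51 CPM in HET heads (-3.94, SE 1.36). Both lay lower in every HOM library than in any HET library. In xanthophores, the yellow cells, gch2 makes pteridine precursors and stood at 37.4, 23.7 and 38.1 CPM in HOM heads against 16, 3.28 and 8.29 CPM in HET heads (1.84, SE 0.65), whereas aox5 overlapped (6.53, 5.95 and 12.1 CPM in HOM heads, 13.2, 3.56 and 6.29 CPM in HET heads). Melanosome genes are also used by the retinal pigment epithelium of the eye, whose part in the result was not tested. The list of photoreceptor and retina genes took 0.0318%, 0.0957% and 0.036% of counts in HOM heads and 0.116%, 0.0572% and 0.316% in HET. In bulk libraries, fewer cells of a type and less RNA per cell cannot be told apart, here or in any gene group that follows.

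**Figure D2:**
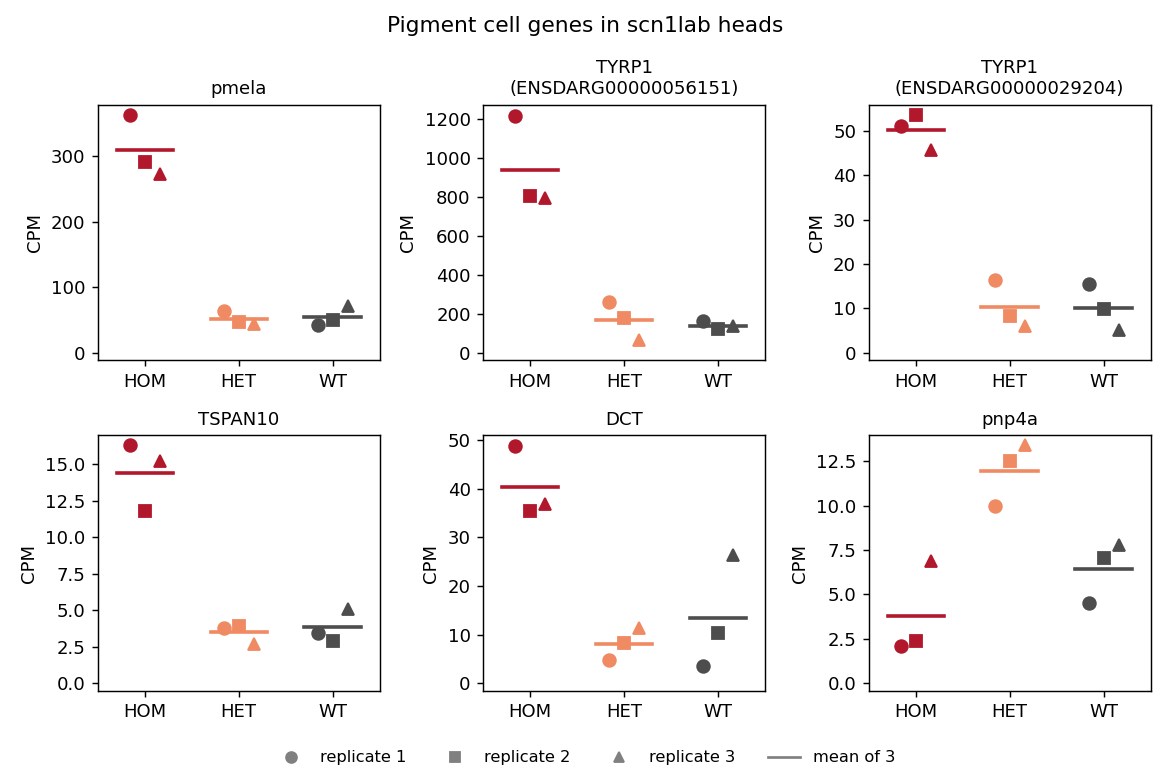
CPM of 5 melanosome genes and of the iridophore gene pnp4a (vertical axis, linear) in HOM, HET and WT heads of the scn1lab line. Points are libraries and lines are means of 3; in the melanosome genes all HOM libraries lie above all HET and WT libraries, and pnp4a is lowest in HOM1 and HOM2.

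Several genes of hypothalamic and pituitary hormones were lower in HOM, and 2 of the clearest make melanin-concentrating hormone. This peptide of hypothalamic neurons gathers the pigment of fish melanophores and pales the skin, and in mammals it acts on feeding and sleep. The gene pmchl stood at 16.2, 17.0 and 12.7 CPM in HOM heads, at 98.7, 167 and 999.9 CPM in HET heads and at 126, 164 and 129 CPM in WT heads. The second gene, PMCH, stood at 4.05, 2.24 and 1.67 CPM in HOM heads, 13.7, 16.7 and 74.8 CPM in HET heads and 10.8, 33.0 and 18.2 CPM in WT heads. In both genes every HOM library lay below every HET and WT library, and HET3 was far above the rest. The log2 differences were -4.78 (SE 0.83) and -3.73 (SE 0.76). DESeq2 called both (adjusted p = 2.3e-07 for pmchl and 4.1e-04 for PMCH). Without HET3, pmchl passed in edgeR with a smaller difference (-3.12, adjusted p = 0.0376).

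Among the other feeding and stress peptides, NPY, an appetite-raising peptide, stood at 14.3, 17.0 and 11.4 CPM in HOM heads, 19.9, 29.9 and 31.7 CPM in HET heads and 39.4, 44.8 and 31.3 CPM in WT heads (log2 difference -0.93, SE 0.28). Every HOM library lay below every HET library, and HET3 alone reached into the WT range. The gene agrp, whose product blocks melanocortin receptors and raises feeding, stood at 5.10, 4.68 and 5.75 CPM in HOM heads and at 4.83, 13.1 and 29.9 CPM in HET heads (-1.62, SE 0.57). The corticotropin-releasing hormone gene crha stood at 0.871, 1.2 and 0.978 CPM in HOM heads and at 2.05, 4.21 and 4.14 CPM in HET heads (-1.75, SE 0.69). Oxytocin (oxt) overlapped, with 2.61, 11.6 and 3.22 CPM in HOM heads and 4.61, 17.1 and 46.1 CPM in HET heads. Of 42 neuropeptide genes tested, 0 were higher and 9 lower at an unadjusted p under 0.05, and the median log2 difference was -0.64. That median ran from -0.95 to 0.05 without each HOM or HET library in turn. It was 0.05 without HET3, which took 0.203% of counts in neuropeptide genes, against 0.0495% and 0.0887% in the other HET libraries and 0.05% to 0.0894% in HOM. In WT heads these genes took 0.119%, 0.161% and 0.198%.

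Several pituitary hormones were lower in HOM too. The gene smtlb encodes a somatolactin, a pituitary hormone tied to pigmentation and metabolism in several species. It held 0 counts in every HOM library, 11, 33 and 45 counts in HET heads and 24, 58 and 114 counts in WT heads, so it was at least 11.9-fold lower in HOM than in HET. TSHB, the beta subunit of thyrotropin, stood at 0, 0.295 and 0 CPM in HOM heads and at 0.659, 1.04 and 1.04 CPM in HET heads (log2 difference -3.02, SE 1.2). Growth hormone (gh1) overlapped: it stood at 17.2, 9.83 and 10.8 CPM in HOM heads and at 13.7, 12.3 and 237 CPM in HET heads, where HET3 alone was high (-2.80, SE 1.13). Prolactin (prl) was alike in HOM (1.74, 3.25 and 3.34 CPM) and HET (2.16, 3.17 and 3.03 CPM) and higher in WT (6.37 to 16.6 CPM). Of 7 pituitary genes tested, 3 were lower and 0 higher at an unadjusted p under 0.05. Their median log2 difference was -2.80, or -1.89 with genes at 0 in 1 group set to their bound. Without HET3 the median was -1.38, and without HOM2 it was -3.41. The list took 0.00171%, 0.00168% and 0.00109% of counts in HOM heads and 0.00161%, 0.00178% and 0.0206% in HET. Among the HOM and HET libraries, HET3 alone stood apart. In WT heads the list took 0.00566%, 0.0138% and 0.0142%, above every HOM library and above HET1 and HET2.

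**Figure D3:**
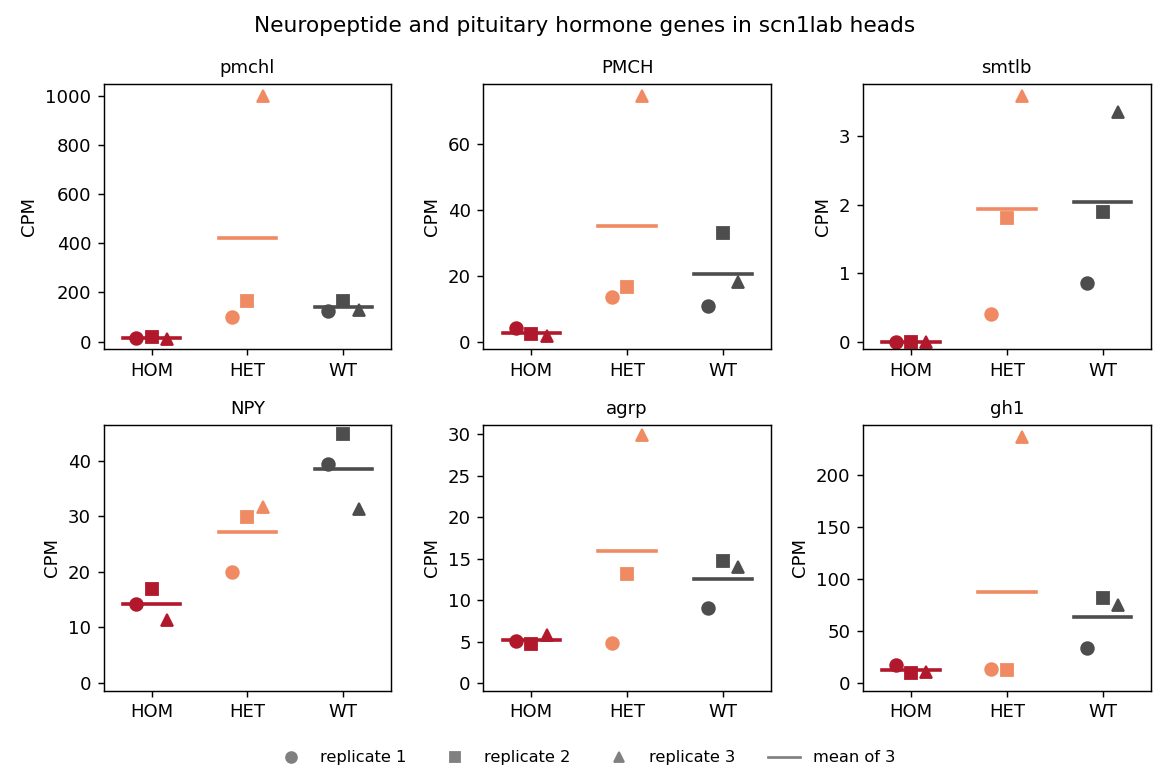
CPM of the melanin-concentrating hormone genes pmchl and PMCH, the feeding peptide genes NPY and agrp, and the pituitary hormone genes smtlb and gh1 (vertical axis, linear) in HOM, HET and WT heads. Points are libraries and lines are means of 3; pmchl, PMCH, smtlb and NPY are lowest in HOM, and HET3 stands apart in pmchl, PMCH, agrp and gh1.

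Several genes of mechanosensory hair cells were higher in HOM than in HET, with HOM near WT. Hair cells sense movement of fluid in the inner ear and in the lateral line organs of the fish skin, and release glutamate onto sensory neurons. The vesicular glutamate transporter of hair cells, SLC17A8, stood at 4.23, 3.12 and 3.57 CPM in HOM heads, at 0.476, 0.219 and 0 CPM in HET heads and at 4.39, 4.22 and 5.80 CPM in WT heads. HOM and WT lay close together, and every HET library lay below every other (log2 HOM minus HET 3.83, SE 0.82; HET minus WT -4.23, edgeR adjusted p = 0.341). The parvalbumin gene pvalb8, a calcium buffer, stood at 790.0, 621 and 431 CPM in HOM heads, 132, 36.4 and 36.7 CPM in HET heads and 702, 198 and 326 CPM in WT heads (3.17, SE 0.65). The annexin gene anxa5a stood at 47.4, 34.8 and 22.9 CPM in HOM heads, 6.12, 0.547 and 1.12 CPM in HET heads and 32.7, 11.8 and 19.1 CPM in WT heads (3.72, SE 0.84). DESeq2 called these 3 genes and TEKT3 higher in HOM (adjusted p = 3.7e-05 for SLC17A8, 4.2e-04 for pvalb8, 0.00118 for anxa5a and 0.0221 for TEKT3).

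A list of hair cell genes was written after these values were seen. POU4F3, a transcription factor that hair cells need to survive, stood at 4.11, 2.78 and 0.805 CPM in HOM heads and at 0.293, 1.04 and 0 CPM in HET heads (log2 difference 2.49, SE 1.04). The calcium-binding protein genes s100t (223, 178 and 116 CPM in HOM heads, 57.2, 9.58 and 35.1 CPM in HET heads) and s100s (19.7, 20.5 and 11.4 CPM in HOM heads, 7.18, 3.23 and 8.61 CPM in HET heads) did not overlap between the groups. CHRNA9, a subunit of the acetylcholine receptor through which the brain damps hair cells, stood at 4.23, 2.61 and 1.15 CPM in HOM heads and at 0.952, 0 and 0 CPM in HET heads. One otoferlin copy, OTOF (ENSDARG00000020581), the calcium sensor of hair cell release, stood at 17.5, 14.2 and 10.7 CPM in HOM heads and at 11.1, 0.711 and 2.47 CPM in HET heads. The other copy (ENSDARG00000030832) did not follow, with 14.2, 20.5 and 8.40 CPM in HOM heads and 8.75, 11.1 and 35.5 CPM in HET heads (-0.36, SE 0.52).

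Other hair cell genes did not share this pattern. The transduction channel gene TMC1 stood at 1.56, 1.14 and 1.04 CPM in HOM heads and at 2.01, 0.383 and 10.2 CPM in HET heads, and ATOH1, which starts hair cell development, at 3.11, 1.1 and 1.90 CPM in HOM heads and 3.44, 1.04 and 0 CPM in HET heads. Of 33 list genes tested, 8 were higher and 0 lower at an unadjusted p under 0.05, beside 2.38% and 1.88% of all genes tested. That count includes the genes that prompted the list. The log2 difference was above 0 in 22 genes and below 0 in 11, with a median of 0.85 (0.56 to 1.42 without each HOM or HET library in turn). The list took 0.112%, 0.121% and 0.0576% of counts in HOM heads, 0.0335%, 0.0136% and 0.0248% in HET, and 0.0607% to 0.14% in WT. A pair of genes of the otolith, the stone that inner ear hair cells carry, went the other way or overlapped: stm (starmaker) stood at 30.6, 30.9 and 23.1 CPM in HOM heads and at 90.7, 40.4 and 85.0 CPM in HET heads (-1.35, SE 0.41), and otomp at 17.9, 11.5 and 14.7 CPM in HOM heads and 19.2, 28.8 and 17.1 CPM in HET heads. Lateral line organs lie in the skin, and skin list genes took 6.45%, 8.1% and 3.77% of counts in HOM heads and 6.71%, 3.36% and 3.32% in HET, and their part in the result was not tested.

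**Figure D4:**
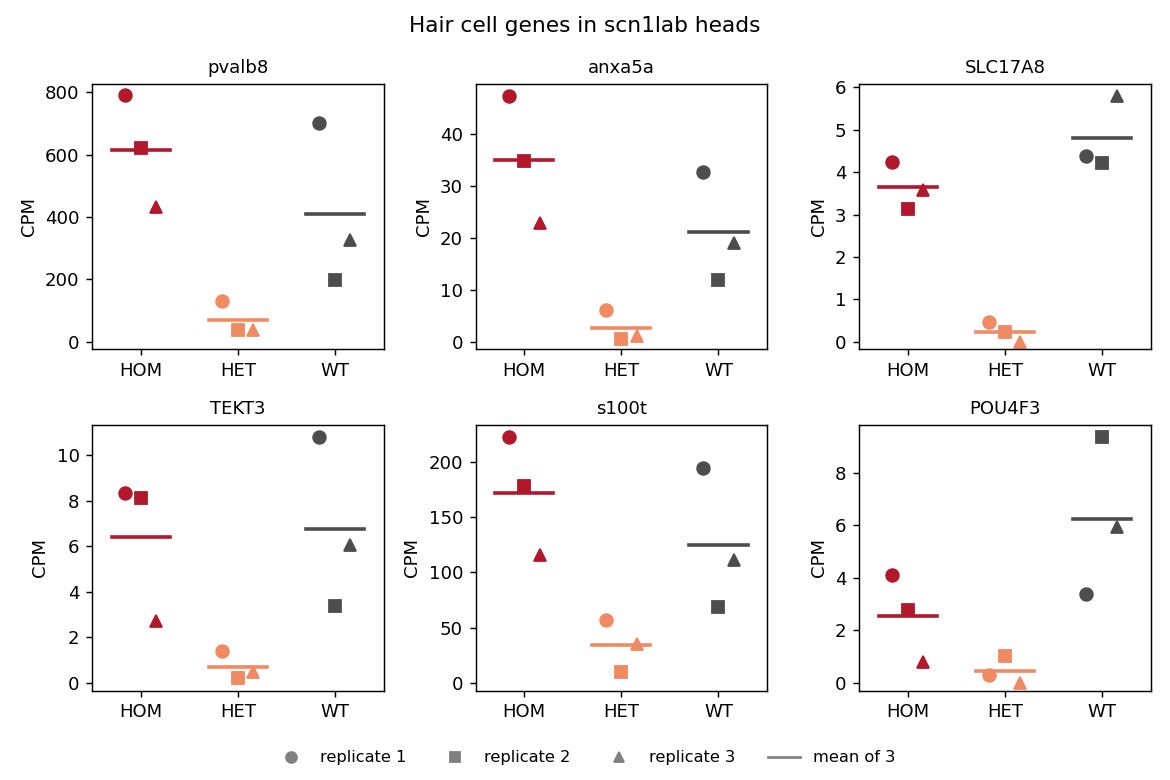
CPM of 6 genes of mechanosensory hair cells (vertical axis, linear) in HOM, HET and WT heads of the scn1lab line. Points are libraries and lines are means of 3; HET lies below HOM in all 6 genes except for POU4F3, where HET2 at 1.04 CPM lies above HOM3 at 0.805 CPM.

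The mutated gene itself, scn1lab (ENSDARG00000062744), did not separate the genotypes. It stood at 14.7, 14.0 and 5.75 CPM in HOM heads, at 4.91, 9.41 and 14.5 CPM in HET heads and at 15.2, 13.9 and 16.6 CPM in WT heads. HOM and HET overlapped (log2 difference 0.26, SE 0.46, edgeR adjusted p = 0.964), and since a transcript with a short deletion can still be made and counted, its level tells nothing about the genotype labels. The paralog scn1laa stood at 1.18, 2.74 and 1.04 CPM in HOM heads and at 1.25, 0.164 and 3.19 CPM in HET heads. SCN8A (ENSDARG00000005775), the other main sodium channel of neurons, stood at 41.0, 35.5 and 21.5 CPM in HOM heads and at 21.5, 70.7 and 11.6 CPM in HET heads. Of 6 alpha subunit genes tested, 0 were higher and 0 lower at an unadjusted p under 0.05, and of 6 beta subunit genes likewise 0 and 0.

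Lists of synaptic genes had lower medians in HOM than in HET, with few members at an unadjusted p under 0.05 and a wide spread between HET heads. SYT2 (ENSDARG00000025206), a calcium sensor of fast transmitter release, stood at 11.5, 13.2 and 16.9 CPM in HOM heads, at 11.6, 45.7 and 46.4 CPM in HET heads and at 80.2, 55.0 and 71.6 CPM in WT heads (log2 difference -1.32, SE 0.46). Of 52 genes of synaptic vesicles and release, 0 were higher and 2 lower at an unadjusted p under 0.05. Their median log2 difference was -0.72 for HOM minus HET, -1.39 for HOM minus WT and -0.93 for HET minus WT, where the comparisons share libraries. The list took 0.119%, 0.216% and 0.102% of counts in HOM heads, 0.0855%, 0.226% and 0.313% in HET and 0.447% to 0.606% in WT, so that HET1 lay below all HOM libraries and HET3 above them.

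For the inhibitory synapse, the output of the interneurons that SCN1A deficits affect, 0 of 34 genes were higher and 3 lower at an unadjusted p under 0.05 (median -0.61). The GABA-A receptor subunit gene gabrz stood at 0.622, 1.43 and 2.59 CPM in HOM heads, 1.61, 8.92 and 9.40 CPM in HET heads and 15.5, 21.8 and 12 CPM in WT heads (log2 difference -2.09, SE 0.71). HET2 and HET3 lay above all HOM libraries, and every HET library lay below every WT library. Of 49 glutamate receptor and transporter genes, 1 was higher, the hair cell transporter SLC17A8, and 3 were lower (median -0.57). Potassium channels (0 higher and 1 lower of 45, median -0.26), calcium channels (0 and 2 of 32, median -0.41), monoamine neurons (0 and 0 of 26, median -0.44) and astroglia (0 and 0 of 33, median -0.29) had few members at an unadjusted p under 0.05. Without HET3 the synaptic list median was -0.25 and the potassium channel median 0.12. With each HOM or HET library left out in turn, the inhibitory median ran from -1.0 to -0.33. The glutamate, calcium channel, monoamine and astroglia medians rose to at most -0.2, -0.13, -0.1 and -0.1. The inhibitory list took 0.0279%, 0.0607% and 0.0286% of counts in HOM heads and 0.0201%, 0.0815% and 0.0644% in HET. For that list too, HET1 lay below all HOM libraries.

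Some of the genes that neurons switch on within minutes of firing were lower than in WT in both HOM and HET. Of 34 early genes tested, 14 were lower and 1 higher in HOM than in WT at an unadjusted p under 0.05, and 11 were lower and 0 higher in HET than in WT. Over all genes tested, both directions together, the share at that p was 18.9% for HOM against WT and 13.2% for HET against WT. The transcription factor gene egr4 stood at 4.17, 3.20 and 6.79 CPM in HOM heads, at 13, 6.40 and 8.13 CPM in HET heads and at 179, 136 and 294 CPM in WT heads. HOM and HET overlapped, with HOM3 above HET2, and both lay far below WT. The log2 HOM minus HET was -0.96 (SE 0.41). Against WT, egr4 fell in HOM by 5.43 on the log2 scale (edgeR adjusted p = 0.0179) and was the gene that passed there, while HET minus WT was -4.47 (adjusted p = 0.0653). FOS stood at 6.85, 5.99 and 21.0 CPM in HOM heads, 29.2, 14.2 and 5.50 CPM in HET heads and 238, 119 and 279 CPM in WT heads. Others did not follow: NR4A1, a nuclear receptor gene of the same list, stood at 5.79, 7.59 and 4.89 CPM in HOM heads, 4.76, 2.79 and 2.31 CPM in HET heads and 6.34, 3.40 and 5.30 CPM in WT heads. Between HOM and HET, 1 early gene was higher (ATF3, a stress-induced factor) and 2 were lower at an unadjusted p under 0.05. The list median was -0.10 for HOM minus HET, -1.0 for HOM minus WT and -0.85 for HET minus WT. The list of neuronal identity genes was as low against WT, with medians of -1.06 for HOM and -1.0 for HET. Of its 51 genes tested, 25 were lower in HOM and 15 in HET at that p, and 0 were higher in either. The medians of the early gene and neuronal identity lists were therefore alike against WT. A median does not describe single members such as egr4 and FOS, which lay far below WT. Whether the share of neurons bears on the early genes was not tested.

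In the list of neuronal identity genes, 3 transcription factors of the forebrain were higher in HOM than in HET. TBR1, which marks glutamatergic neurons of the pallium and is itself an autism risk gene, stood at 26.3, 56.1 and 32.7 CPM in HOM heads, 10.3, 20.3 and 16.6 CPM in HET heads and 40.9, 41.2 and 38.7 CPM in WT heads (log2 difference 1.29, SE 0.34). EOMES (ENSDARG00000006640), its relative of the same lineage, stood at 38.6, 53.1 and 74.8 CPM in HOM heads, 15.0, 26.2 and 12.7 CPM in HET heads and 29.4, 82.8 and 62.8 CPM in WT heads (1.63, SE 0.44). The pallial gene emx3 stood at 30.4, 33.8 and 25.2 CPM in HOM heads and 21.0, 12.3 and 19.4 CPM in HET heads (0.76, SE 0.27). In all 3 genes HOM and HET did not overlap, and for TBR1 all HET libraries lay below all WT libraries. Over 51 genes of neuronal identity, these 3 were higher and 2 lower at an unadjusted p under 0.05, beside 2.38% and 1.88% of all genes tested. The log2 difference was above 0 in 15 of the 51 and below 0 in 36. The median was -0.26 (-0.54 to -0.08 without each HOM or HET library in turn).

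Some genes of DNA replication were higher in HOM. MCM3 and MCM5, subunits of the helicase that opens DNA for replication, stood at 16.5, 14.0 and 15.0 CPM and at 21.8, 19.8 and 12.9 CPM in HOM heads, and at 4.65, 11 and 6.69 CPM and 6.96, 10.9 and 12 CPM in HET heads (log2 differences 1.03 and 0.87). CCNE1, the cyclin of entry into S phase, stood at 9.65, 9.28 and 10.8 CPM in HOM heads and at 6.48, 4.49 and 3.74 CPM in HET heads (1.01, SE 0.40). Of 54 proliferation genes, 6 were higher and 0 lower at an unadjusted p under 0.05, in 11 the groups did not overlap with HOM higher, and the median was 0.44 (0.22 to 0.63 without each HOM or HET library in turn). DESeq2 called 0 of the 54. Over all genes tested, 2.38% were higher at that p and 4.98% did not overlap with HOM higher. WT lay close to HOM for MCM3 (13.9, 12.6 and 16.5 CPM) and close to HET for CCNE1 (5.95, 2.62 and 3.74 CPM).

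Some inflammatory and heat shock genes were higher in HOM as well. The NF-kB subunit gene nfkb2 stood at 22.7, 22.5 and 32.9 CPM in HOM heads and at 17.7, 13.3 and 11.7 CPM in HET heads (log2 difference 0.87, SE 0.29), and TNFAIP3, which damps NF-kB signalling, at 19.3, 14.7 and 11.4 CPM in HOM heads and 8.06, 8.15 and 8.29 CPM in HET heads (0.89, SE 0.30). The chemokine gene ccl20a.3 stood at 11.8, 5.95 and 4.54 CPM in HOM heads, 1.87, 2.19 and 3.11 CPM in HET heads and 1.20, 0.523 and 0.648 CPM in WT heads. Of 50 genes of cytokines, interferon and NF-kB, 9 were higher and 0 lower at an unadjusted p under 0.05. The log2 difference was above 0 in 28 of them and below 0 in 22. The median was 0.23 (0.07 to 0.70 without each HOM or HET library in turn). As a whole the list did not separate the groups: it took 0.279%, 0.192% and 0.176% of counts in HOM heads and 0.333%, 0.317% and 0.109% in HET. The chaperone gene hsp70.3 stood at 3.80, 4.01 and 13.8 CPM in HOM heads and at 0.879, 0.711 and 0.239 CPM in HET heads (3.52, SE 0.83), and DESeq2 called it (adjusted p = 0.00867). The related hsp70l stood at 7.41, 6.24 and 13.2 CPM in HOM heads, 4.36, 2.24 and 1.43 CPM in HET heads and 6.73, 5.20 and 6.39 CPM in WT heads. In both chaperones HOM3 was highest. Of 29 stress and heat shock genes, 4 were higher and 0 lower at an unadjusted p under 0.05. The log2 difference was above 0 in 16 and below 0 in 13, with a median of 0.09 (-0.08 to 0.27 without each HOM or HET library in turn). Shares of counts overlapped, with 0.428%, 0.657% and 0.534% in HOM heads and 0.542%, 0.561% and 0.358% in HET.

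The naming rule also took genes outside these groups. The cytokine receptor gene il20ra stood at 65.9, 68.3 and 45.9 CPM in HOM heads, 20.4, 14.5 and 6.61 CPM in HET heads and 10.4, 10.8 and 7.77 CPM in WT heads (log2 difference 2.11). The annexin gene anxa1b stood at 45.0, 50.1 and 36.5 CPM in HOM heads, 154, 139 and 333 CPM in HET heads and 108, 84.8 and 103 CPM in WT heads (-2.25), while its relative anxa1c, of the skin list, stood at 683, 692 and 385 CPM in HOM heads and 218, 182 and 309 CPM in HET heads (1.31). FURIN (ENSDARG00000062909), a protease that matures hormones and receptors, stood at 6.22, 7.76 and 6.38 CPM in HOM heads, 9.01, 164 and 94.1 CPM in HET heads and 88.7, 56.2 and 48.1 CPM in WT heads, so HET1 stood with HOM (-3.71). It passed without HET1 (-4.24, edgeR adjusted p = 0.019). The relaxin gene rln3a, a peptide of hindbrain neurons, stood at 4.79, 5.10 and 3.34 CPM in HOM heads and 9.15, 22.1 and 45.2 CPM in HET heads (-2.52). The cardiac actin gene actc1c stood at 75.9, 77.6 and 3.80 CPM in HOM heads and at 0, 0.164 and 0.558 CPM in HET heads (7.99). The tetraspanin gene tspan37 stood at 34.5, 32.1 and 30.8 CPM in HOM heads and at 18.6, 16 and 15.1 CPM in HET heads, a small difference with little spread (0.97).

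Counts were 0 in every library of 1 genotype and at least 10 in every library of the other for 18 of 32020 gene IDs. Of these, 13 were on in HOM and at 0 in HET, and 5 were the reverse. The number of such genes moved with the libraries used and with the minimum count, as given in the last section. ALOX5 (ENSDARG00000043085), named for arachidonate 5-lipoxygenase, which makes leukotriene precursors, held 120, 296 and 55 counts in HOM heads, 0 in every HET library and 3, 0 and 0 in WT, so it was at least 45.1-fold higher in HOM. The clustered protocadherin gene pcdh2ab2, a neuronal adhesion protein, held 11, 30 and 27 counts in HOM heads, 0 in every HET library and 91, 69 and 106 in WT, at least 6.83-fold higher in HOM than in HET. NLRC3, of a large family of immune receptors, held 12, 19 and 17 counts in HOM heads and was at least 4.92-fold higher. On the other side, the basement membrane collagen gene col4a3 held 0 counts in HOM heads and 13, 15 and 44 counts in HET heads, so it was at least 9.89-fold lower in HOM. Whether reads shared with similar genes bear on these counts was not tested.

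Lists whose share of counts differed widely between libraries of a genotype are given with their medians when a library was left out. Lens crystallins had a median log2 difference of 4.40 over 17 genes, carried by HOM2: CRYBB1 stood at 0.124, 165 and 13.2 CPM in HOM heads and at 1.5, 2.13 and 0.558 CPM in HET heads, and the median was 1.13 without HOM2. Photoreceptor and retina genes had a median of -2.49 over 30 genes, with 28 below 0, and 0 higher and 2 lower at an unadjusted p under 0.05. In 10 of the 30 every HOM library lay below every HET library, beside 2.92% of all genes tested. Without HET3 that median was -1.32. The eyes had been removed, and the list took 0.0488% of counts in WT1, within the HOM range, against 0.874% in WT2 and 0.763% in WT3. The ribosomal protein list had a median of -0.82 over 95 genes, and of 0.01 without HET3. The digestive list had a median of 1.16 over 50 genes, with 4 higher and 0 lower at an unadjusted p under 0.05, and ran from 0.27 to 3.45 without each HOM or HET library in turn. The part of these tissues in the results above was not tested beyond the fits with the digestive share as a covariate and without its genes, in which si:dkey-73p2.2 stayed the only call (adjusted p = 0.03 and 0.0115).

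**Figure D5:**
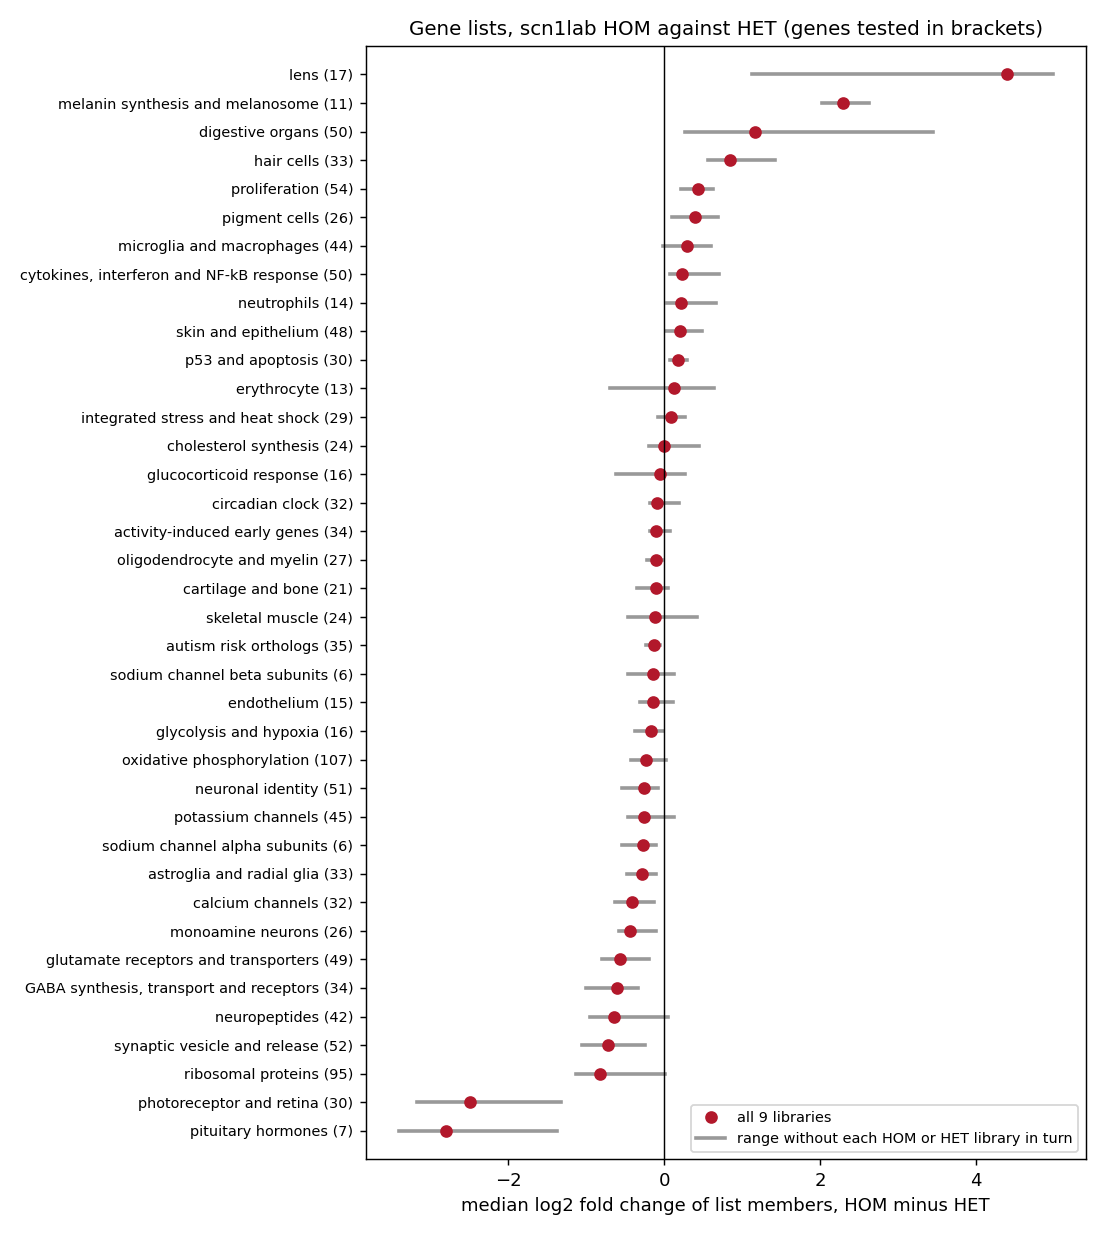
Median log2 fold change (horizontal axis, HOM minus HET) of the members of each gene list (vertical axis, number of genes tested in brackets) in the scn1lab line. Points are from all 9 libraries and grey bars span the medians without each HOM or HET library in turn; the melanosome list stays between 2.03 and 2.63, and the ribosomal list reaches 0.01.

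In a cross of heterozygous fish, HOM and HET larvae differ also in the chromosome around the mutation. Gene order was read from a RefSeq table of another build (GRCz12tu), which placed 14532 of the tested genes by symbol. The called gene si:dkey-73p2.2 was not among the genes placed, so its distance from scn1lab was not read. The counts below do not cover it. Among 200 tested genes within 100 places of scn1lab, 0 passed the threshold and 6 had an unadjusted p under 0.05 (3.0%, exact 95% interval 1.11% to 6.42%). That share was 4.12% on the rest of the chromosome and 4.25% on the other chromosomes, beside 4.26% of all genes tested. The 6 included pbx1b, a homeobox gene (3.11, 5.90 and 4.72 CPM in HOM heads, 5.05, 10.7 and 21.7 CPM in HET heads), and CYP27C1, an enzyme of retinoid metabolism (5.60, 5.86 and 4.43 CPM in HOM heads, 10.6, 7.39 and 9.40 CPM in HET heads). In the main fit the share near the mutation was therefore not above the background. The exact interval treats the genes as independent, although all were read in the same heads, so it does not cover the spread between heads. Without HET1 the share near scn1lab was 11.50%, in a fit where 3077 of all genes tested had an unadjusted p under 0.05, against 915 in the main fit. The 4.26% is therefore not the background of that fit. Without HOM1 the share near scn1lab was 0.50%. Both of these shares lie outside the interval.

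The dyrk1a line gave 0 genes past the threshold for HOM against HET, with a smallest adjusted p of 0.0921, and 1117 of 22488 genes at an unadjusted p under 0.05 (4.97%). The test of the difference between the lines, (scn1lab HOM minus HET) minus (dyrk1a HOM minus HET), called 0 genes, with a smallest adjusted p of 0.631 and 1216 genes at an unadjusted p under 0.05 (5.41%). None of the differences above is therefore shown to be particular to the scn1lab line at that threshold. The log2 HOM minus HET value of pmchl was -4.78 in scn1lab and -0.08 in dyrk1a (difference -4.70, SE 0.91, edgeR adjusted p = 0.631), and that of pmela was 2.59 and 0.40 (difference 2.19, SE 0.48, adjusted p = 0.67). Among the 11 melanosome genes the difference between lines was above 0 in 9 and below 0 in 2, pmelb and SLC24A5. The median difference over all genes tested was 0.02. That list was written after the scn1lab values were seen, and the difference contains those values. Its signs are therefore no separate support. SLC24A5 held the smallest adjusted p of the dyrk1a line, with 18, 23, 15 and 9 counts in dyrk1a HOM heads and 0 counts in all 3 dyrk1a HET heads. Its fitted difference between lines, -5.13 (SE 1.17, edgeR adjusted p = 0.67), rests on those zeros and depends on the prior count. For SLC17A8 the values were 3.83 and -0.29 (difference 4.11, SE 0.90, adjusted p = 0.67), for anxa5a 3.72 and 0.13 (difference 3.58, SE 0.83, adjusted p = 0.67), and for anxa1b -2.25 and 0.16 (difference -2.41, SE 0.49, adjusted p = 0.631). The lysosomal protease gene LGMN stood at 337, 278 and 781 CPM in scn1lab HOM and 159.5, 145 and 142 CPM in scn1lab HET, with log2 values of 1.65 in scn1lab and -0.03 in dyrk1a (difference 1.68, SE 0.39, adjusted p = 0.67). Without scn1lab HET1, the test of the difference called 24 genes.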

How the data were processed

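Per the labels' protocols, RNA of single larval heads without eyes was extracted with 1 of 2 kits, not said per library, made into libraries with a low-input kit and sequenced. Per the submitters' processing notes, reads were processed with Trim Galore 0.5.0, HISAT2 2.1.0, StringTie 1.3.3b and DESeq2 1.22.1 on GRCz11. The authors deposited raw counts per gene for 32020 gene IDs, and 28975 have a symbol in the supplied table of names. Whether counting used strand is not given in the sources used here.

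Here, counts of the 9 scn1lab libraries were filtered with filterByExpr and scaled with TMM factors. The test was that of edgeR 4.0.16 (R 4.3.3, robust quasi-likelihood F test, two-sided, Benjamini-Hochberg over all genes, threshold 0.05), with SE as the log2 change over the square root of F. CPM use TMM-scaled sizes. The line difference used all 19 libraries. The steps were tested on simulated data. Alternatives included DESeq2 1.42.0 and limma 3.58.1. Folds against 0 use a floor of 3 counts per library and cover counting error only.

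The comparison, the 36 gene lists and the naming rule were chosen with earlier results of these data known. The rule took sodium channels, the 12 genes per direction with the smallest p among non-overlapping genes of mean CPM of at least 1, up to 3 members per list, and up to 6 genes per direction for line differences and on and off genes. The melanosome and hair cell lists, and genes named beyond the rule, were added after values were seen. Gene order replaced a planned window of bases around scn1lab, because the reference table is of another build. An exact permutation test of 3 against 3 libraries cannot go below p = 0.1, so single genes rest on the edgeR fit.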

Additional observations from a re-analysis of the deposited data

Results flagged for a closer look

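The 152 named genes were screened for HOM and HET libraries that did not overlap in either line and lay in opposite order. A called difference between lines would also have been kept. The screen kept 3 genes, all named by the rule for the difference between lines, and all by the first criterion. Their opposite order is therefore how they were picked and not a result, and no share over all genes is given. The test of the difference itself did not pass for any of them. On the CPM scale of all 19 libraries, tp53inp2 stood at 19, 12.6 and 14.7 CPM in scn1lab HOM and 25, 40.6 and 31.1 CPM in scn1lab HET, and at 35.5, 32.8, 35.4 and 46.1 CPM in dyrk1a HOM and 25.7, 31.5 and 24.2 CPM in dyrk1a HET (log2 difference between lines -1.53, SE 0.33, edgeR adjusted p = 0.67). PSMD6, a proteasome subunit gene, stood at 45, 48.1 and 51.5 CPM in scn1lab HOM and 53.6, 75 and 110 CPM in scn1lab HET, and at 69 to 73.1 CPM in dyrk1a HOM and 47.3 to 55.4 CPM in dyrk1a HET (-1.23, SE 0.28, adjusted p = 0.67). The tight junction gene CLDN19 stood at 5.6, 5.3 and 4.8 CPM in scn1lab HOM and 6.12, 6.15 and 9.27 CPM in scn1lab HET, and at 5.47 to 9.96 CPM in dyrk1a HOM and 2.66 to 3.29 CPM in dyrk1a HET (-1.86, SE 0.44, adjusted p = 0.67).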

How the results depend on the processing

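The count of genes past the threshold in HOM against HET was 1 in the edgeR fit and stayed 1 with RLE scaling, no filter, a CPM filter, the digestive share as covariate or its genes removed. It was 61 with DESeq2, 2 with voom, 0 with only the 6 HOM and HET libraries, 0 without the 3 libraries of high digestive share, and 0 to 3 without 1 library. The cause was not tested, beyond the fewer libraries of some fits. The count at an unadjusted p under 0.05 was 915, and 1388 with DESeq2, 509 with the 6 libraries and 602 (without HOM1) to 3077 (without HET1) without 1 library. The edgeR adjusted p of pmela reached 1 when the libraries rich in digestive genes were left out, with log2 differences from 2.45 to 2.77. HOM against WT gave 1524 calls with DESeq2, 3255 with voom, 4 without a filter, 0 with the digestive covariate, 0 without the libraries of high digestive share and 0 to 171 without 1 library (171 without HET1). HET against WT gave 298 with DESeq2 and 1 without a filter. The line difference gave 0 to 24 without 1 library (24 without scn1lab HET1). The share near scn1lab ran from 0.50% to 11.50% without 1 library. On and off genes numbered 34 to 84 without 1 library and 6 at a minimum of 20 counts. Turned in direction were FABP6 without HOM3 (-0.74, against up to 10.81 without HOM1), crybb1l1 with voom (-0.19) and RPL31 without HET3 (0.01, against down to -1.99 without HET1). The replicate numbers are not said to mark a pairing. HOM and HET libraries of the same number deviated with correlations of 0.1, -0.4 and -0.22. Of the 6 libraries HET1 alone correlated best with its own number. With 3 libraries per group, these values cannot show whether the numbers mark a pairing. With a replicate block, HOM against HET gave 1 call and HOM against WT 2. Other scalings moved the median of all genes by under 0.1. The smallest library, HET3 at 15.1 M, limits low genes most. Windows of 5 and 10 Mb around scn1lab were not run.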
